A study of Mus musculus with 2 samples.

Results

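The stretch examined here spans 1.2 Mb of mouse chromosome 4 (mm10, chr4:88400001-89600000), from the end of Focad to the distance beyond the cell cycle inhibitor genes Cdkn2a and Cdkn2b, with the type I interferon genes in between. Every region of either list that overlapped this interval was taken. These were 119 of 13636 Etv4 regions and 92 of 8297 Etv5 regions, 211 of 21933 in all. The interval was chosen by the density of regions in both lists, so density and counts are given as a description with no test.

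The 2 libraries came from EpRas cells, a mouse mammary gland epithelial line (EpH4) carrying oncogenic H-Ras. The cells were grown in 4% serum and received 1 ng/ml TGF-β3 for 1.5 h, a cytokine that induces epithelial-mesenchymal transition in this line. Chromatin immunoprecipitation followed by sequencing (ChIP-seq) was done with a rabbit polyclonal antibody to Etv4 in the first library and with a mouse monoclonal antibody to Etv5 in the second. There was 1 library per antibody and a single cell line, so differences between the lists have no replicate error beside them. The lists held positions, a region number and a score that was the same for every region, the depth of each library is unknown, and the authors called regions without an input library.

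Etv4 and Etv5 are transcription factors of the ETS family, which bind DNA with a GGAA core. Type I interferons are secreted cytokines of the antiviral response that signal through a shared receptor, and most of their genes lie together in a cluster in the mouse. Interferon beta and the alpha interferons are induced through IRF factors, which bind repeated GAAA letters. Cdkn2a encodes the cell cycle inhibitors Ink4a and Arf, and Cdkn2b encodes Ink4b. Mtap encodes an enzyme of methionine and adenine salvage, Klhl9 an adaptor of a Cul3 ubiquitin ligase, and Mir31 a microRNA.

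The first sequence shown recurred at 13 interferon genes that held most of the regions at interferon genes. The copy at Ifnz, which encodes interferon zeta, is printed. The capitals mark the ETS letters CAGGAAGT as read on the minus strand. The same 60 bases stood at each of the 13 copies.
Ifnz copy, chr4:88782079-88782138, plus strand: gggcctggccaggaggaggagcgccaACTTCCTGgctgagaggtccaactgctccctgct
The promoters of Klhl9 and Mtap are shown because both lists held a region over each start. They run from 250 bases before to 50 bases after the RefSeq start (GRCm38.p6), which for Mtap lies inside the gene as GENCODE draws it. None of the ETS, AP-1, RUNX or IRF core letters defined below were found in either window, so nothing is in capitals.
Klhl9 promoter, chr4:88722459-88722758, minus strand: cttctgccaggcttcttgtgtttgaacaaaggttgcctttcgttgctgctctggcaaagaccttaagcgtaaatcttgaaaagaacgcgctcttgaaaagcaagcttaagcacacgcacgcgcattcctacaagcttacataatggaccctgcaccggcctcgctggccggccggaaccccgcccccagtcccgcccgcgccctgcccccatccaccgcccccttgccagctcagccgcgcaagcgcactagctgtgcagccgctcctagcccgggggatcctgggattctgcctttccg
Mtap promoter, chr4:89137120-89137419, plus strand: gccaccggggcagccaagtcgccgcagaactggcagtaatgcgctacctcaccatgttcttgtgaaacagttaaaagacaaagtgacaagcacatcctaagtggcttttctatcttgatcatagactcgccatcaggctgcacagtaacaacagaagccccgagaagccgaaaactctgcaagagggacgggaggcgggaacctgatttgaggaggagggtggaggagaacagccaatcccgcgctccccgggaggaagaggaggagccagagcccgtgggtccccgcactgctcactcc
Next come the middle 200 bases of 3 overlaps between an Etv4 and an Etv5 region, read from GRCm38. They carried the lowest region numbers of both lists together, and capitals mark AP-1 letters. The first covers a transcript start of Wincr1, the second lies at the start of AL805899.2, and the third lies beyond the end of Ifna13 and holds none of the letters searched.
Wincr1 pair, chr4:89058659-89058858, plus strand: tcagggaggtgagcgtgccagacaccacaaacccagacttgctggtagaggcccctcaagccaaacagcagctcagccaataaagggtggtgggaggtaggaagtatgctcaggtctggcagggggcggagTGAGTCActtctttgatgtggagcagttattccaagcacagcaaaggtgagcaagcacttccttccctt
AL805899.2 pair, chr4:89038968-89039167, plus strand: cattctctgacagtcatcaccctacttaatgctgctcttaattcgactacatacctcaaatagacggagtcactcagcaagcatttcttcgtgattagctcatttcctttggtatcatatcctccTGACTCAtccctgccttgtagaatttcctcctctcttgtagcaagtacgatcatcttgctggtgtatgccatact
Ifna13-side pair, chr4:88641048-88641247, plus strand: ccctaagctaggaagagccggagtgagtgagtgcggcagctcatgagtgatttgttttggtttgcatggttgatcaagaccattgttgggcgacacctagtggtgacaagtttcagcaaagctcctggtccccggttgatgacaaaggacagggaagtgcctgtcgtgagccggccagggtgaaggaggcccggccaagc
The mature miR-31 sequences (RefSeq, GRCm38.p6) are shown with the seed, bases 2 to 8, in capitals, because an Etv4 region reached into the hairpin.
mmu-miR-31-5p, chr4:88910614-88910635, minus strand: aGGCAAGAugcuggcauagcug
mmu-miR-31-3p, chr4:88910577-88910599, minus strand: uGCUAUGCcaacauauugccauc

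Both antibodies gave far more regions here than along the rest of the chromosome. Etv4 regions stood at 99.2 per Mb against 5.00 per Mb over the nuclear genome, a 19.8-fold density. Etv5 regions stood at 76.7 per Mb against 3.04 per Mb, a 25.2-fold density. The stretch is 0.044% of the genome and held 0.873% of the nuclear Etv4 regions and 1.11% of the nuclear Etv5 regions. Chromosome 4 outside it held 842 Etv4 and 553 Etv5 regions, at 5.42 and 3.56 per Mb.

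The interval was chosen by density, so the lower counts on both sides of it are given as a description. The 1.2 Mb to the left held 15 Etv4 and 25 Etv5 regions, 2.5 and 6.85 times the genome mean. The 1.2 Mb to the right, on the Cdkn2b side, held 1 Etv4 and 0 Etv5 regions. After the last region of the stretch, the next Etv4 region lay 262 kb away and the next Etv5 region 1460 kb away.

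**Figure D1:**
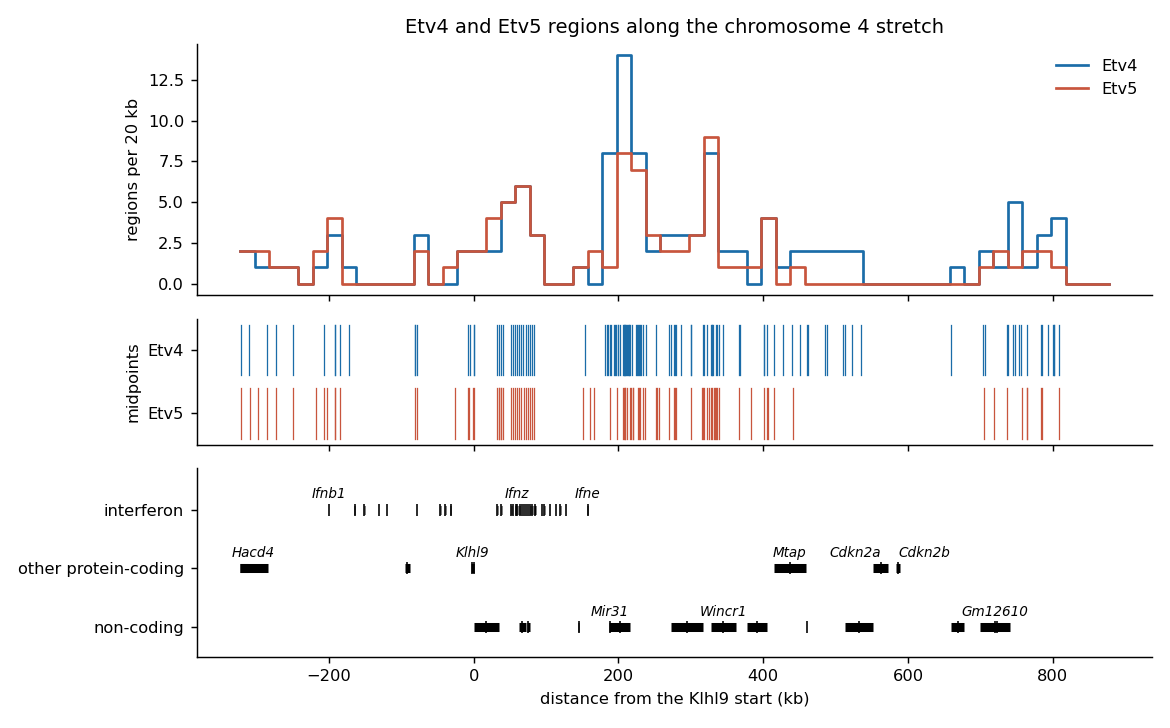
Regions along the stretch, by distance from the Klhl9 start in kb. The top panel counts region midpoints per 20 kb, the middle panel marks each midpoint of the 119 Etv4 and 92 Etv5 regions, and the lower panel marks genes by class. Both lists peak over the interferon zeta copies to the right of Klhl9 and between Mir31 and Wincr1, and both are empty over Cdkn2a and Cdkn2b. Regions of both lists appear again from Gm12609 to the right end, at 7.34 (Etv4) and 4.13 (Etv5) per 100 kb.

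Within the stretch, regions came in dense runs separated by empty sequence. The median distance between neighbouring midpoints was 2972 bp for Etv4 and 3060 bp for Etv5, against 37756 bp and 89011 bp over the whole lists. Even so, the longest distance without a region was 123 kb for Etv4 (chr4:89258296-89381520) and 264 kb for Etv5 (chr4:89164116-89427711). Both held Cdkn2a and Cdkn2b. Neighbours over 100 kb apart made up 33.1% of the whole Etv4 list and 47.6% of the whole Etv5 list, so such a distance was not rare elsewhere.

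Of the 68 annotated genes overlapping the stretch, 32 held an Etv4 region, 32 held an Etv5 region and 30 held both. All 14 Gm-numbered protein-coding genes among the interferons held both. Of the 17 interferon genes with a name of their own, 2 did, namely Ifnz and Ifna13. Neither of the 2 cell cycle inhibitor genes held any. Of the 5 other protein-coding genes, 4 held both, of the 14 non-coding genes 10 held Etv4 and 8 held Etv5 regions, and of the 16 pseudogenes 2 held Etv4 and 4 held Etv5 regions. Overlapping genes count the same regions, as at the non-coding gene Gm26525, whose 4 Etv4 regions also lie at zeta copies. The share over all annotated genes was not computed, so these counts are a description only.

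Among the secreted ligands, the zeta type carried nearly all regions. Ifnz and 12 of the Gm-numbered genes are close copies of one another. Over 1000 bp before to 500 bp after the coding start, the 12 were 98.9% to 99.4% identical to Ifnz. Their coding starts followed each other every 2928 bp as a median (2910 to 13220 bp). Each of the 13 copies had an Etv4 region over its coding start, and each had an Etv5 region over it.

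Region position recurred from copy to copy. Etv4 midpoints lay between 456 and 166 bp before the coding start, with the midpoint at -369 bp as a median, and the regions were 1277 to 1540 bp long. Gm13283 had 2 Etv5 regions, and the values that follow take the one over the coding start. On that choice, Etv5 midpoints ranged from -338 to 91 bp, with a median of -182 bp, and the regions were 724 to 1461 bp long. In 13 of 13 copies that Etv5 midpoint lay farther downstream than the Etv4 midpoint, by 161 bp as a median and by 57 to 518 bp. The other Etv5 region of Gm13283 (chr4:88759587-88760106) was 520 bp long, and its midpoint lay 500 bp upstream of the Etv4 midpoint. The copies are near-identical, so these are not 13 independent observations.

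The ETS letters at -681 bp from the coding start, printed above, lay inside the Etv4 region in 13 of 13 copies. They lay inside an Etv5 region in 8 of 13. At Gm13285 the Etv5 region began at position 88799640, a base to the right of the first base of the letters at 88799639. No AP-1 or RUNX letters were found in any array region.

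**Figure D2:**
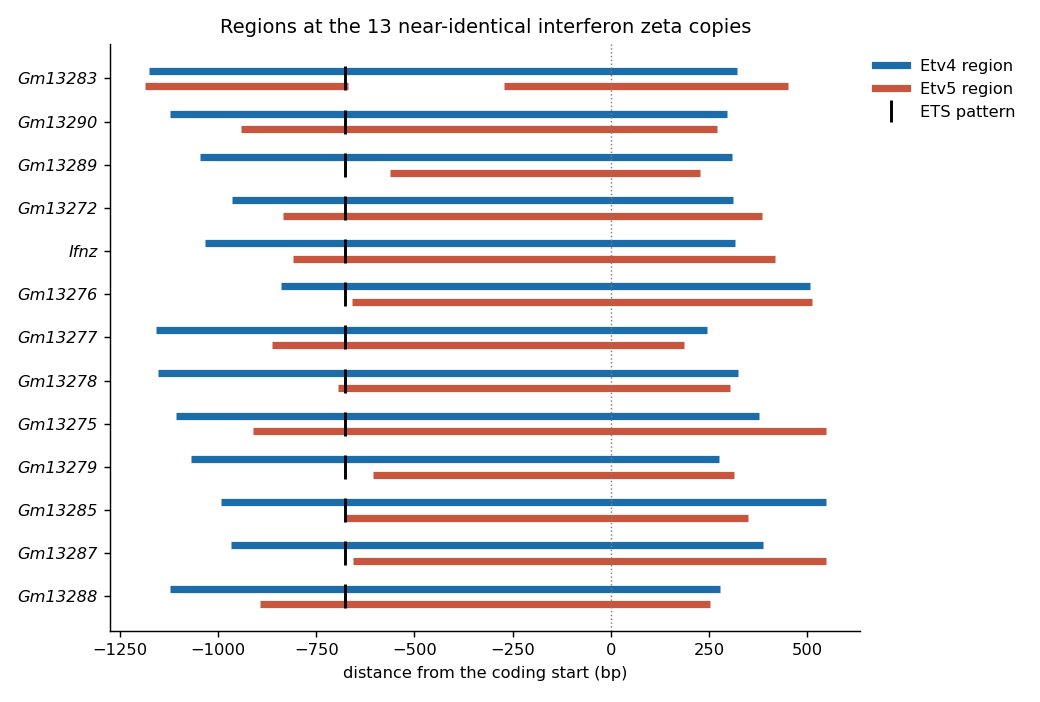
Etv4 (blue) and Etv5 (red) regions at the 13 near-identical interferon zeta copies, by distance from the coding start in bp, with the ETS letters marked in black. Etv4 regions reach farther upstream than Etv5 regions at every copy except Gm13283, where a second Etv5 region lies upstream and the Etv5 regions leave the middle uncovered.

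The values at these copies are limited by the read length. Trimming of reads to 36 bases is described for the study's accessibility libraries, to whose protocol its ChIP-seq methods point. Every array region was mostly multicopy, meaning that over 50% of its 36-base sequences occur more than once in the assembly. This held for 16 Etv4 regions, 13.4% of those in the stretch (95% interval 7.88% to 20.9%), against 5.93% of the whole list. It held for 18 Etv5 regions, 19.6% (12% to 29.1%), against 9.70% of the whole list. Random windows of 500 bp were mostly multicopy in 15.2%. The median 36-base sequence around a copy's coding start occurred 13 or 14 times in the assembly, and 96.5% to 99.0% of the repeated ones occurred only inside the stretch, so most such reads match several copies equally well. How the authors placed such reads is not given in the sources used here. Which copies were bound, if any, cannot be told. Without an input library, binding cannot be told apart from background on repeated sequence.

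Beside the 13 copies, the array held Gm13271, which was 63.8% identical to Ifnz and had a region of each list over its first bases. The pseudogenes Gm13286 and Gm13284 also had the ETS letters and regions of both lists. In all, the array counted 16 Etv4 and 18 Etv5 regions in 54.5 kb. They covered 39.4% and 31.8% of it, and all of them overlapped a region of the other list, against 37.8% and 63.2% of the whole lists.

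The interferon alpha genes looked different. Of 14 alpha genes, Ifnab included, 1 had a region within 1.5 kb of its coding start in each list, and it was the same gene, Ifna13. Its Etv4 region (chr4:88643529-88644106) and Etv5 region (chr4:88643358-88643764) were centred 567 and 824 bp downstream of the coding start, the Etv5 midpoint lying past the annotated end of the gene. Windows of the alpha genes were 44.3% to 46.6% identical to that of Ifnz. Their multicopy share was 10.6% to 48.5%, below the 81.3% to 100% of the zeta copies. The IRF core letters GAAANNGAAA stood within 300 bp before the coding start in 11 of 14 alpha genes and nowhere in the windows of the 13 zeta copies. The windows of Ifne and of Ifnb1, whose product is induced through IRF factors, lacked these letters too. Absence of the letters is therefore not read as absence of IRF control. The ETS letters stood in 1 of the 14 alpha windows. The same letters written backwards, a control described below, stood 157 or 160 bp after the coding start in every alpha window except that of Ifna11. GC content was 39.5% to 47.2% at alpha genes and 58.9% to 59.5% at zeta copies.

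Ifnb1, which encodes interferon beta, held no region. The nearest Etv5 midpoint lay 2.52 kb downstream of its start and the nearest Etv4 midpoint 7.04 kb downstream. Between the left border of the stretch and Ifna15, the next interferon gene after Ifnb1, 10 Etv4 and 12 Etv5 regions were listed, with 9 of each in a pair (37.8% and 63.2% in the whole lists). At Ifne, which encodes interferon epsilon, a type expressed constitutively in the female reproductive tract, the nearest midpoints were 3.51 kb downstream (Etv4) and 2.87 kb upstream (Etv5), and these did not overlap.

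The adaptor gene Klhl9 had a region of both lists over its start. The Etv4 region ran over chr4:88721934-88722759 and the Etv5 region over chr4:88721370-88722702, with midpoints 0.118 and 0.429 kb downstream of the start at position 88722465. They shared 769 bp. An AP-1 sequence lay in both. Gm26566, counted above among the Gm-numbered genes, starts inside Klhl9 on the other strand and shares these regions. It also reached into a further Etv5 region, chr4:88722820-88724013, which did not overlap Klhl9.

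Mtap also had both lists over its start at 89137122. The Etv4 region (chr4:89136706-89137909) was 1204 bp long and the Etv5 region (chr4:89136963-89138138) 1176 bp, and they shared 947 bp. Inside Mtap, Etv4 had 4 regions and Etv5 had 2, with 1 pair, the one at the start.

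Cdkn2a and Cdkn2b lie next to Mtap, yet held no region of either list. The Etv4 midpoint nearest to a start of Cdkn2a lay 24.3 kb downstream of the start at 89282192, and the nearest Etv5 midpoint lay 118 kb away. For Cdkn2b, the nearest were 53.1 kb (Etv4) and 117 kb (Etv5) away. Between the end of Mtap and the start of Gm12609, 9 Etv4 and 0 Etv5 regions were listed, all to the left of Cdkn2a except the last, which lay just before Gm12609. Unsequenced bases of the assembly made up 30.4 kb of that interval, all to the right of Cdkn2b, and neither gene held any of them. Without them, the distance lacking regions was still 92.8 kb for Etv4 and 233 kb for Etv5.

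The most regions lay in the non-coding part between Ifne and Gm12602. These 220 kb held 53 Etv4 regions, 44.5% of those in the stretch, and 39 Etv5 regions, 42.4%. They stood at 24.0 and 17.7 per 100 kb and covered 19.5% and 10.9% of the sequence. None was mostly multicopy. Of these, 29 Etv4 and 30 Etv5 regions overlapped the other list, against 58.0% and 79.3% of the regions in the stretch and 37.8% and 63.2% of the whole lists. By position, 23 Etv4 regions were intronic, 18 intergenic and 12 within 2 kb of a transcript start, and for Etv5 these counts were 13, 16 and 10.

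Mir31 lies inside the long non-coding gene AL805899.1, whose transcript runs the same way. AL805899.1 overlapped 18 Etv4 regions, the most of any gene in the stretch, and 7 Etv5 regions. Of these, 5 Etv4 and 5 Etv5 regions were paired. Regions without a partner in the other list were also the majority of the whole Etv4 list, of which 37.8% was paired. The Etv4 region chr4:88910032-88910629 held 73 of the 106 bp of the Mir31 hairpin, including the whole of miR-31-3p. The nearest Etv5 region, chr4:88910737-88911143, lay on the upstream side with its midpoint 0.278 kb before the Mir31 start, and it did not overlap the Etv4 region.

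Wincr1 is a long non-coding gene with regions of both lists. AL805899.2 and Wincr1 overlapped 7 and 8 Etv4 regions, of which 6 and 6 were paired, and 6 and 7 Etv5 regions, of which all were paired. In the whole lists, 37.8% of Etv4 and 63.2% of Etv5 regions were paired, and nothing is read from such small counts. Wincr1 has 2 transcript starts, and both were covered by both lists. At the start at 89050308, the midpoints lay 0.156 kb (Etv4) and 0.296 kb (Etv5) upstream. At the start at 89058796, they lay 0.091 and 0.037 kb upstream.

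This second start had AP-1 letters in the printed window, with their first base 6 bp before it. Further AP-1 letters lay 107 and 484 bp after it, the last inside the Etv4 region only. Between the starts lay the longest region of the stretch, an Etv4 region of 2269 bp at chr4:89055747-89058015, which overlapped 2 Etv5 regions.

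**Figure D3:**
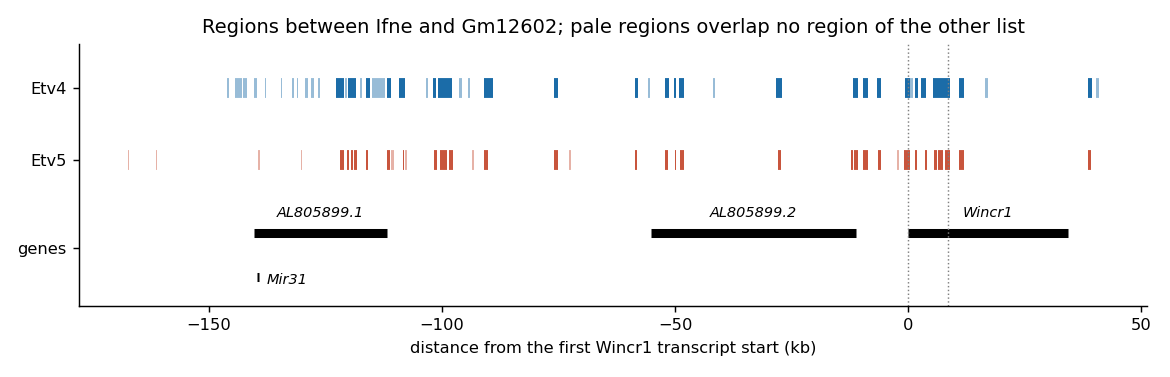
Regions from Ifne to Gm12602, by distance from the first Wincr1 transcript start in kb, with gene bodies below. Pale regions overlap no region of the other list. Dotted lines mark both Wincr1 starts, and 5 of the 18 Etv4 regions in AL805899.1 and 6 of the 8 in Wincr1 are dark, against 37.8% paired in the whole list.

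The remaining long regions were spread over several genes. The next longest Etv4 regions were 1859 bp (chr4:88927507-88929365, in AL805899.1), 1831 bp (chr4:88959386-88961216), 1669 bp (chr4:88949959-88951627) and 1606 bp (chr4:88714069-88715674, left of Klhl9). The longest Etv5 region was also 1606 bp (chr4:88412072-88413677, in Hacd4, a dehydratase gene of fatty acid elongation). Then followed 1468 bp (chr4:88949863-88951330), 1461 bp at the zeta copy Gm13275, 1363 bp at the start of Gm12602 and 1333 bp at Klhl9. All 10 of these regions overlapped a region of the other list.

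Pairs between the lists were counted where regions shared at least 1 bp. In the stretch, 69 of 119 Etv4 regions were paired (58.0%, 48.6% to 67.0%), against 37.8% of the whole list. For Etv5, 73 of 92 were paired (79.3%, 69.6% to 87.1%), against 63.2% of the whole list. Without mostly multicopy regions these shares were 51.5% (53 of 103, 41.4% to 61.4%) and 74.3% (55 of 74, 62.8% to 83.8%). The Etv5 interval then included the share of the whole list, from which such regions were not removed. Intervals are exact 95% binomial intervals and cover counting error only, and neighbouring regions are not independent. The stretch was chosen by density in both lists, so its pairing shares are not independent of that choice. Etv4 and Etv5 regions covered 8.04% and 5.45% of it, against 0.328% and 0.17% of the nuclear genome. The part of density in pairing was not tested, here or in any part of the stretch.

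The midpoints of the 77 pairs lay farther apart than elsewhere, while the overlap was similar. Midpoints lay 172 bp apart as a median (1 to 943 bp), against 86 bp over all 5317 pairs of the lists. They were within 250 bp in 66.2% of pairs, against 84.8% of all pairs. The overlap was 69.5% of the Etv4 region and 94.1% of the Etv5 region as medians, against 71.4% and 98.7% over all pairs. Regions here were longer than in the lists, and the part of length in the midpoint distance was not tested. The Etv5 region lay inside the Etv4 region in 28 pairs and the reverse held in 4. In 56 pairs, 1 Etv4 region met 1 Etv5 region, while 8 Etv4 and 4 Etv5 regions had 2 partners or more.

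Paired regions were longer than unpaired ones. Medians were 983 and 479 bp for Etv4 and 740 and 375 bp for Etv5. A longer region has more bases with which to meet another, and the part of length in pairing was not tested. Regions of 1 kb or longer made up 29.4% of Etv4 regions in the stretch (35 of 119), against 9.43% of the whole list, and 22.8% of Etv5 regions (21 of 92), against 3.77%. Without mostly multicopy regions these shares were 19.4% and 16.2%. Unpaired Etv4 regions lay 3.32 kb as a median from the nearest Etv5 region, and unpaired Etv5 regions 2.50 kb from the nearest Etv4 region.

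**Figure D4:**
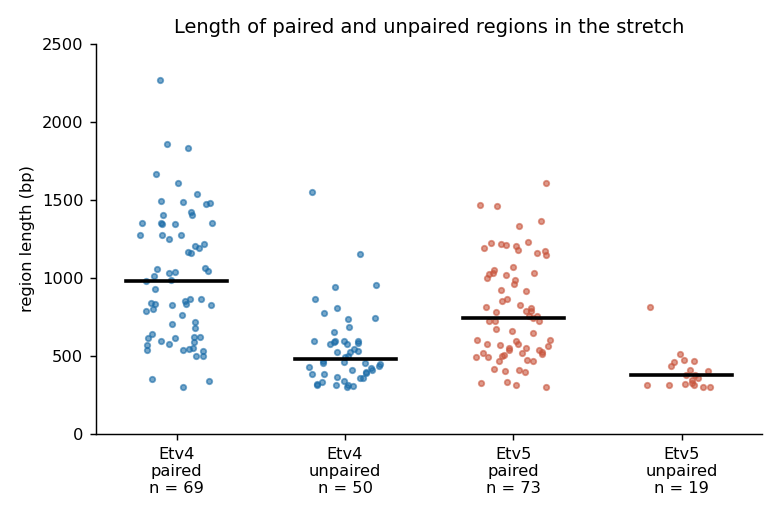
Length in bp of each region in the stretch, split by list and by whether it overlapped a region of the other list. Black bars are medians: 983, 479, 740 and 375 bp from left to right, and 1 unpaired Etv5 region lies above 600 bp.

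The share of regions near starts depended on the zeta array. Midpoints at most 2 kb from a TSS (transcription start site) belonged to 39 Etv4 regions (32.8%, 24.4% to 42.0%), against 36.5% of the list, and to 37 Etv5 regions (40.2%, 30.1% to 51.0%), against 33.1%. All 16 Etv4 and 18 Etv5 regions of the zeta array fell in this class, and without them the shares were 22.3% (14.7% to 31.6%) and 25.7% (16.2% to 37.2%). The Etv4 interval then lay below the share of the list, and the Etv5 interval included it. Mostly multicopy regions were not removed from the lists. A further 32 Etv4 and 19 Etv5 regions were intronic, 2 and 2 exonic, and 46 and 34 intergenic.

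Known motifs were then searched as fixed letters on both strands, in 500 bp around each midpoint. ETS letters (CAGGAAGT or CCGGAAGT) were found in 5.04% of Etv4 regions (6 of 119, 1.87% to 10.7%) and in 5.43% of Etv5 regions (5 of 92, 1.79% to 12.2%). The whole lists had 10.2% and 7.92%, and random windows 3.37%. The RefSeq promoters printed above were 300 bases long, so promoter shares are not directly comparable with shares in 500 bp. Of all RefSeq promoters, 7.07% held these ETS letters. The same letters written backwards, a control that overlaps no other motif here, were found in 0 of 119 Etv4 regions (upper limit 2.52% counted as 3 regions of 119, or 3.05% by the exact interval) and in 4.35% of Etv5 regions. The lists had 3.59% and 3.81% of it, and random windows 3.31%.

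The ETS count depended on the window. Searched over the whole region, the letters were in 20 Etv4 regions (16.8%) and 12 Etv5 regions (13%), against 11.6% and 8.21% of the whole lists searched in the same way. Of these, 15 Etv4 and 9 Etv5 regions lay in the zeta array, where the letters sit beyond 250 bp from most midpoints. Outside the array, 5 of 103 Etv4 regions (4.85%, 1.59% to 11%) and 3 of 74 Etv5 regions (4.05%, 0.844% to 11.4%) held them. Regions here were longer than in the lists, and a longer region has more places for a match. The part of length was not tested. The backwards count depended on the window as well for Etv4. Over whole regions they were in 11 Etv4 regions (9.24%, 4.71% to 15.9%), 10 of them in the array, and in 4 Etv5 regions (4.35%), against 4.83% and 4.10% of the whole lists.

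AP-1 letters (TGAGTCA or TGACTCA, which are each other's reverse complement) were the most frequent. They were in 28.6% of Etv4 regions (34 of 119, 20.7% to 37.6%) and 21.7% of Etv5 regions (20 of 92, 13.8% to 31.6%). The whole lists had 37.4% and 35.7%, and random windows 7.62%. Promoters, searched in shorter sequences, had 5.20%. None of the mostly multicopy regions of the stretch held them. Without those regions the shares were 33.0% (24.1% to 43.0%) and 27.0% (17.4% to 38.6%). These intervals include the share of each list, from which mostly multicopy regions were not removed. Over whole regions, 48 AP-1 sites were found, of which 26 lay in a region of each list, 19 in an Etv4 region only and 3 in an Etv5 region only. The Etv4 region with the most AP-1 sites (chr4:89529866-89530689), the last of the stretch, held 4, of which 3 were shared with its Etv5 partner.

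RUNX letters (TGTGGTT or TGTGGTC) were in 18.5% of Etv4 regions (22 of 119) and 15.2% of Etv5 regions (14 of 92). The lists had 24.7% and 23.9%, random windows 16.6% and promoters 9.27%. IRF core letters were in 7.56% of Etv4 regions (9 of 119) and 9.78% of Etv5 regions (9 of 92). The lists had 5.07% and 5.06% of them, random windows 8.47% and promoters 3.44%. For both motifs, promoter sequences were again shorter than 500 bp. Of the motifs searched in 500 bp, AP-1 was the only one whose 95% interval in the stretch lay above its share of random windows in both lists. A match is a description of letters, not a bound site.

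**Figure D5:**
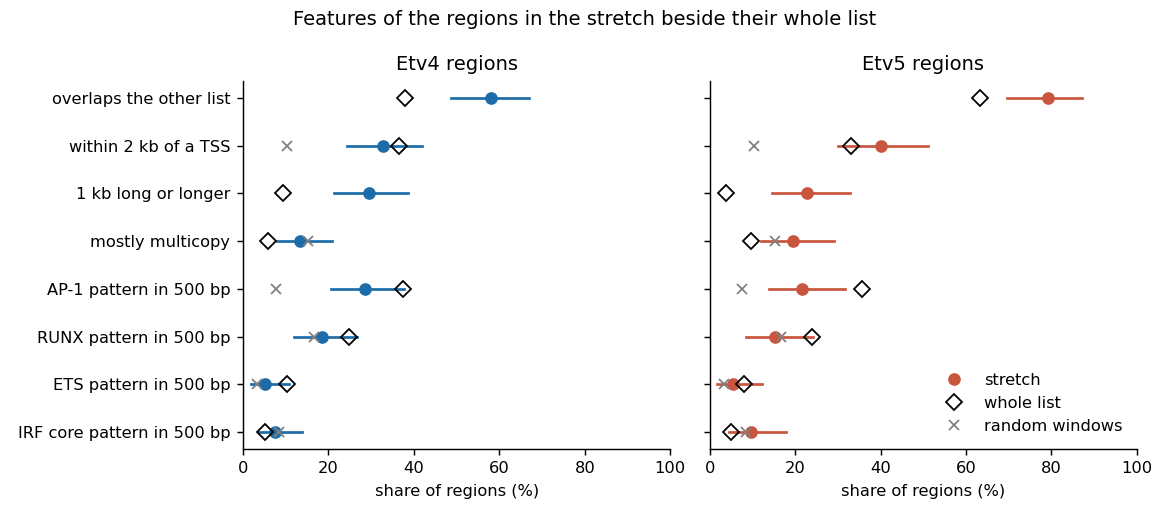
Share of regions in the stretch with each feature (circles, with exact 95% intervals), beside the whole list (diamonds) and random windows of 500 bp (crosses, where counted). Overlap with the other list and length of 1 kb or more lie above the whole list for both antibodies, and AP-1 letters lie below it for Etv5. The stretch was chosen by density in both lists, so overlap is not independent of that choice. Without the mostly multicopy regions of the stretch, the Etv5 intervals for overlap and for AP-1 letters include the share of the unfiltered list.

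Base composition and region number were also set beside the lists. Median GC content in 500 bp was 43.6% for Etv4 (list 49.6%) and 42.7% for Etv5 (list 48.6%). The deposited region number, whose criterion is not stated, was in the first 25% of the list for 45 Etv4 regions (37.8%) and 35 Etv5 regions (38.0%). Without mostly multicopy regions this was 31 of 103 Etv4 regions (30.1%) and 21 of 74 Etv5 regions (28.4%), nearer to the list. The lowest numbers were 148 for Etv4, at the second Wincr1 start, and 110 for Etv5, left of Ifna13 at chr4:88640673-88641456, where the paired Etv4 region (chr4:88640842-88641454) had number 163. At the zeta copies, numbers ran from 1069 to 2212 for Etv4 and from 299 to 1739 for the Etv5 region over the coding start, within the first 25% in 13 of 13 copies for both lists. The other Etv5 region of Gm13283 had number 4423, outside the first 25%.

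To the right of the cell cycle inhibitors, 16 Etv4 and 9 Etv5 regions lay between Gm12609 and the end of the interval. Of these, 7 of each were paired, and AP-1 letters in 500 bp were found in 9 Etv4 and 5 Etv5 regions. In the whole lists 37.8% and 63.2% were paired and 37.4% and 35.7% held AP-1 letters, and with so few regions, in a part bounded after positions were seen, nothing is read from these counts. No midpoint there came within 2 kb of a start. Gm12610, a non-coding gene in this part, overlapped 4 Etv4 and 3 Etv5 regions.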

How the data were processed

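The data were 2 region lists from ChIP-seq of EpRas cells, 1 per antibody. Per the study's methods, the authors ran CisGenome on each library alone (one-sample, window 300 bp, p threshold 0.1, no input library). The processing notes name Bowtie and mm10, and trimming of reads to 36 bases is described for accessibility libraries, whose protocol the ChIP-seq methods cite. The treatment of reads matching several places is not given in the sources used here. The deposited score was 1000 for every region and was not used. The deposited region number, whose criterion is not stated, was used to order regions within a list. No read count or depth was given.

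Coordinates are 1-based (lengths uncertain by 1 bp). Sequence and genes came from GRCm38 and GENCODE. RefSeq promoters matched 38 of 68 genes. The members, segments and gene groups were chosen with earlier results of these data known, and segment borders after positions were seen. Named genes were protein-coding genes with a region in the body or within 2 kb of the start, non-coding genes with 5 regions or more, and Ifnb1, Klhl9, Mtap, Cdkn2a and Cdkn2b, with the 5 longest regions of each list. Multicopy shares counted 36-base sequences on both strands in the assembly. The background comprised 10000 random windows of 500 bp.

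No test was made. Functions for overlap, merging, pattern search, intervals and 36-base counts were tested on simulated data or against direct counts. Alternatives were merging within 300 bp, the longer 50%, the first 50% by number, lists without mostly multicopy regions, other rules of overlap, TSS distance and window. Python 3.11.15, numpy 2.4.6, pandas 2.3.3, scipy 1.17.1 and matplotlib 3.10.9 were used.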

Additional observations from a re-analysis of the deposited data

How the results depend on the processing

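Densities stayed within 1.5 times under every alternative run, between 18 and 24 times the genome mean for Etv4 and between 22.5 and 30.2 times for Etv5. The longer 50% of each list left 72 Etv4 and 55 Etv5 regions, and the first 50% by number left 69 and 54, by construction. The share of paired Etv4 regions was 45.4% when 50% of both regions had to overlap, 42.9% with midpoints within 250 bp, and 68.1% in the first 50% by number. For Etv5 it was 58.7% and 55.4% under the first 2 rules, and 87.3% in the longer 50%. Within 5 kb of a TSS lay 46.2% of Etv4 and 56.5% of Etv5 regions, within 2 kb of a protein-coding TSS 16.8% and 21.7%, and without mostly multicopy regions 22.3% and 25.7%. In 200 bp, ETS letters were in 1.68% of Etv4 regions, and AP-1 letters in 17.6% of Etv4 and 9.78% of Etv5 regions. Over the whole region, ETS letters were in 16.8% and 13%, mostly in the zeta array. The backwards ETS letters, searched in this way after the data were seen, were in 9.24% of Etv4 and, as in 500 bp, 4.35% of Etv5 regions. The share in the first 25% by number without mostly multicopy regions, also added after the data were seen, was 30.1% for Etv4 and 28.4% for Etv5. Of the other values recomputed, 27 stayed within the interval or 1.5 times of the reported one, and the 21 others are those above. No paired analysis was possible because there was 1 library per antibody. Depth is unknown and no input library was used.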

Other observations

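RefSeq annotates longer non-coding genes than GENCODE in the part between Ifne and Gm12602 and to the right of Mtap. Gm49890, which RefSeq places at 88909854 to 88942042, overlapped 20 Etv4 and 10 Etv5 regions. Gm34568, at 88956416 to 89031301, overlapped 10 of each. Gm12610, 223 kb long in RefSeq and spanning Cdkn2b, overlapped 13 Etv4 and 8 Etv5 regions, against 4 and 3 in the GENCODE model. With these models, more of the regions called intergenic above lie inside a non-coding gene.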
